A study of Mus musculus with 6 samples.

Results

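The genes described here encode enzymes that remove or add methyl groups on histone lysines. They are 37 genes of a fixed list, matched by symbol in a table of 34745 genes, and each symbol was found once. By biochemical role they comprise 14 demethylases that need 2-oxoglutarate (alpha-ketoglutarate), 2 demethylases that need flavin, 19 methyltransferase family genes, and Eed and Suz12, the non-catalytic core subunits of Polycomb repressive complex 2 (PRC2). RNA was measured by RNA-seq in CD4 T cells of female C57BL/6 mice aged 6 weeks. Naive cells from the spleen were stimulated through CD3 and CD28 under Th17-polarising cytokines for 4 days. Both groups received this mixture. At 6 h of stimulation the cells of 3 libraries labelled PM2.5 were given fine airborne particles at 100 µg/ml and those of 3 control libraries PBS. Separate animals or cultures behind the libraries of a group are not stated, and each p-value therefore reflects the variation among these libraries alone, which may be technical.

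Methyl groups on histone lysines are placed by methyltransferases, nearly all with a SET domain, which take the methyl group from S-adenosylmethionine. Most demethylases carry a JmjC domain that uses iron, oxygen and 2-oxoglutarate, and their activity can therefore follow the metabolism of the cell, while the LSD1 family uses flavin. Methylation of H3K4 and H3K36 is a feature of transcribed chromatin, and that of H3K9 and H3K27 of silenced chromatin. In helper T cells the H3K27 system takes part in keeping the genes of other lineages off. RNA levels say nothing about enzyme activity or about the marks themselves, which were not measured.

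Library totals were 19511561 to 22353131 counts in the control and 25397965 to 27215853 in the PM2.5 group, so every PM2.5 library was deeper. Levels are CPM (counts relative to the library total) scaled by TMM, which adjusts for library composition, unless FPKM (scaled by gene length and library total) is named. The cell identity genes Cd3d, Cd3e, Cd3g, Cd4 and Cd28 summed to 1481 to 1507 CPM in the control and 1318 to 1349 CPM in the PM2.5 libraries, and 4 Th17 genes to 3113 to 3166 and 2177 to 2649 CPM, scaled by library totals. On the same scale 2 CD8 T cell genes summed to 10.2 to 11.5 and 8.86 to 9.80 CPM, and 3 NK cell genes to 6.41 to 9.74 and 4.04 to 5.59 CPM. The 4 B cell genes summed to 0.769 to 1.34 CPM in the control and to 0.236 to 0.367 CPM in the PM2.5 libraries, lower in all 3. The 4 macrophage genes summed to 0.513 to 0.767 and 0.354 to 0.536 CPM, ranges that overlap. Scaled by library totals, the summed CD4, Th17, CD8 and NK cell genes were lower in all 3 PM2.5 libraries too. On the TMM scale these gaps would be smaller, and the narrow CD8 gap could close. Ncr1, Ms4a1, Lyz2, Hbb-bs, Hba-a1 and Hba-a2 had 0 counts in all 6 libraries. Their part in the results below was not tested. In bulk RNA, fewer cells of a kind and less RNA per cell cannot be told apart.

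Most of the demethylase genes were modestly higher after PM2.5, and the methyltransferase genes moved both ways. Of the 37 genes, 23 rose and 5 fell at a Benjamini-Hochberg adjusted p under 0.05 in the quasi-likelihood test of edgeR, fitted over all 12967 genes tested. Among all genes tested 70.6% passed, 35.2% higher and 35.3% lower. The members passed at a similar rate, 75.7%, but with 62.2% higher and 13.5% lower. All 37 passed the filter on low counts. Members are well-expressed genes (median 125 CPM in the control, against 27.8 CPM for all genes tested), and where the mean reached 5 CPM (9920 genes) 74.4% passed, 41.3% higher and 33% lower. The median log2 fold change was 0.22 over the members, -0.01 over all genes tested and 0.07 over those reaching 5 CPM. Members are also longer (median 11150 bases, against 5132 for all genes tested). With offsets for gene length alone their median change was 0.23, and with offsets for gene GC content and length it was 0.14. Changes were small: Ezh2 alone passed with at least a 2-fold change (1 of 37, or 2.70%), against 18.9% of all genes tested and 13.3% of those reaching 5 CPM. The median size of a significant log2 change was 0.36 for members and 0.59 for all genes. The groups did not overlap for 30 members, 25 higher and 5 lower, where 74.9% of all genes tested did not overlap (37.4% higher, 37.4% lower) and, of those reaching 5 CPM, 78.2% (43.5% higher, 34.7% lower).

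**Figure D1:**
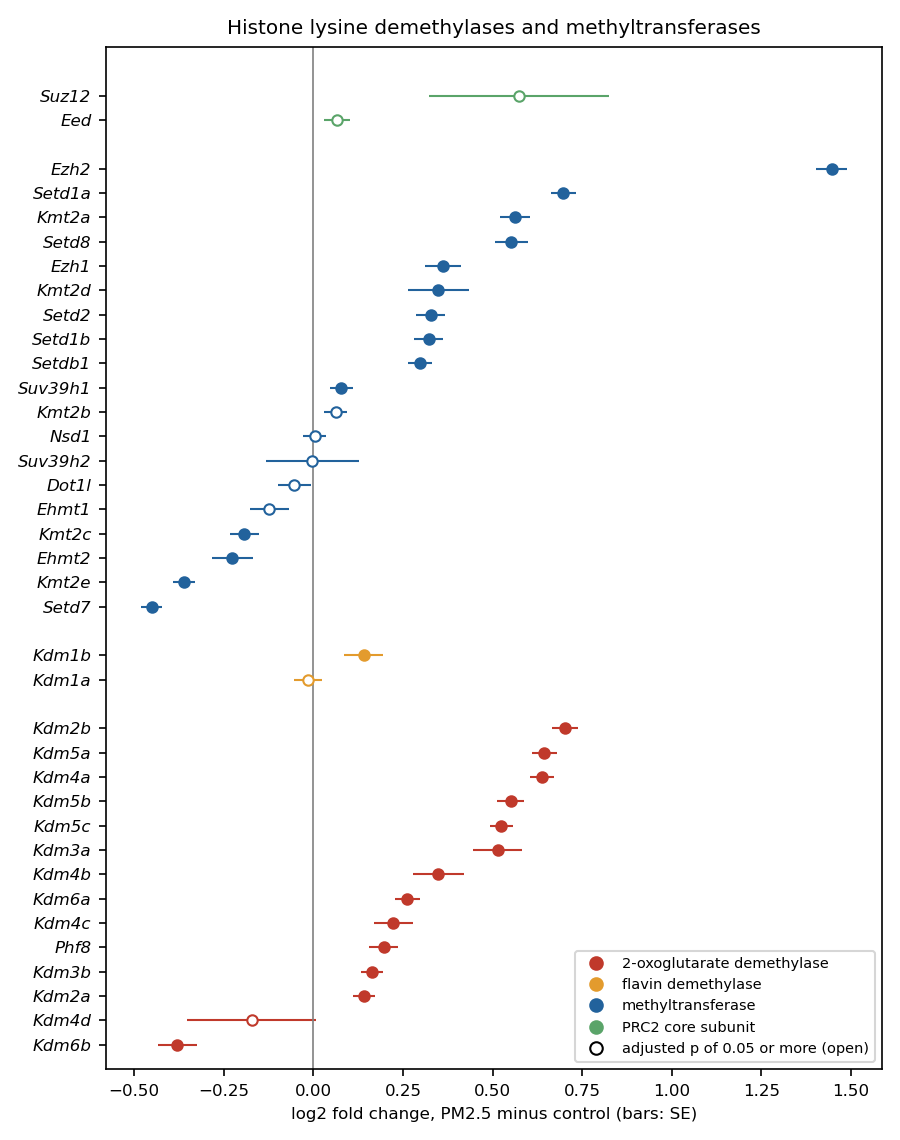
Log2 fold change of each of the 37 genes, PM2.5 minus control, with its SE as a bar; colours give the biochemical class and open points the genes that did not pass an adjusted p of 0.05. Most of the 2-oxoglutarate demethylases lie right of 0, the methyltransferases spread from Setd7 at -0.45 to Ezh2 at 1.45, and Suz12 has the widest bar.

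Of the 14 demethylases that depend on 2-oxoglutarate, 12 rose and Kdm6b fell, while Kdm4d missed the threshold, and the median log2 fold change was 0.31. Of the 19 methyltransferase genes, 10 rose and 4 fell, 5 missed the threshold, and the median was 0.08. By share, 92.9% of these demethylases and 73.7% of the methyltransferases passed, where 70.6% of all genes tested did. Higher were 85.7% and 52.6%, against 35.2% of all genes tested. These counts and medians describe a list chosen with results known and are not a test of one class against the other. Summed per length, the 14 demethylases stood at 146 FPKM in each control library and at 180, 174 and 179 FPKM in the PM2.5 libraries, 21.6% higher. The 19 methyltransferases stood at 259, 259 and 265 FPKM against 303, 300 and 307 FPKM, 16.2% higher, and without Ezh2 the mean sum went from 243 ± 4.48 to 256 ± 4.45 FPKM (SD, n = 3), 5.37% higher. These sums are scaled by library totals, and the log2 fold changes by TMM. The TMM factors were 1.02 to 1.03 in the control and 0.978 in the PM2.5 libraries, so the percentages would be larger on that scale. The ratio of the demethylase sum to the methyltransferase sum was 0.564, 0.565 and 0.551 in the control and 0.595, 0.580 and 0.582 in the PM2.5 group. Ezh2 thus carried most of the increase in the methyltransferase sum.

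**Figure D2:**
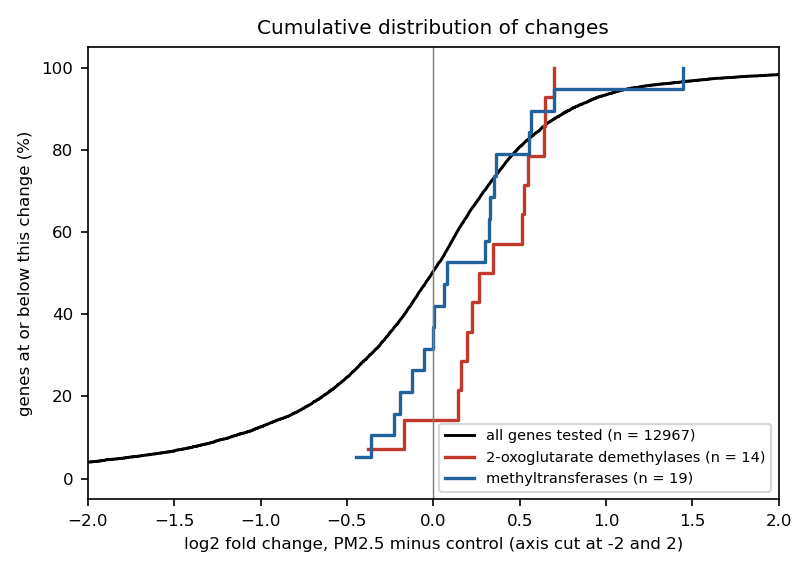
Share of genes at or below each log2 fold change for all 12967 genes tested, the 14 demethylases that depend on 2-oxoglutarate and the 19 methyltransferases. The demethylase curve lies right of the curve of all genes up to a change of 0.64 and ends at 0.70, and the methyltransferase curve crosses it more than once.

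The largest change was that of Ezh2, the main catalytic subunit of PRC2, which methylates H3K27. Ezh2 (ENSMUSG00000029687, mm10 chromosome 6, 47530139 to 47595341) was at 161, 170 and 153 CPM in the control libraries and at 449, 443 and 426 CPM in the PM2.5 libraries. The lowest PM2.5 library lay above every control library by a wide margin. The log2 fold change was 1.45 (SE 0.04, adjusted p = 6.11e-10), 2.72-fold. In FPKM genes can be compared, subject to the gene lengths the authors used. Ezh2 was the tenth of the 37 in the control (18.2 ± 0.91 FPKM, SD, n = 3) and the highest in the PM2.5 group (47.4 ± 1.27 FPKM). Its relative Ezh1, which can replace it in the complex and prevails in resting cells, was at 84.6 ± 3.65 CPM in the control and rose to 109 ± 6.08 CPM, 1.28-fold (0.36, SE 0.05, adjusted p = 7.70e-05). Of the summed FPKM of this pair Ezh2 held 69.1, 71.6 and 69.6% in the control and 84.2, 82.5 and 83.0% in the PM2.5 libraries.

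The 2 other core subunits of PRC2 did not pass. Eed, which binds trimethylated H3K27 and stimulates the enzyme, was at 78.3 ± 1.84 and 82.0 ± 0.78 CPM (0.07, SE 0.04, adjusted p = 0.130). Suz12, which holds the complex together (ENSMUSG00000017548, mm10 chromosome 11, 79993106 to 80034123), was at 116, 128 and 122 CPM in the control and at 151, 146 and 247 CPM in the PM2.5 group. All PM2.5 libraries were above all control libraries, but PM2.5 replicate 3 stood far above its group, whose coefficient of variation of 31.4% was the highest of the members, and the median over members in that group was 3.39%. With all libraries the log2 fold change was 0.57 (SE 0.25, adjusted p = 0.105). Without PM2.5 replicate 3 it was 0.29 and passed (adjusted p = 0.000450). With DESeq2 on all libraries it was 0.57 with an adjusted p of 0.0445.

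Stretches upstream of the RefSeq start sites (build GRCm38.p6) of the PRC2 genes Ezh2 and Suz12 and of Setd7, the gene with the largest fall, are given for context, 5′ to 3′ on the gene's strand. Each is the longest run of the 250 bases before the start that lies outside the exons of its gene in GENCODE M21, 125 bases for Ezh2 at chr6:47595059-47595183 (minus strand), 250 for Suz12 at chr11:79992856-79993105 (plus strand) and 194 for Setd7 at chr3:51560880-51561073 (minus strand). Capitals mark matches to the motifs searched.
Ezh2: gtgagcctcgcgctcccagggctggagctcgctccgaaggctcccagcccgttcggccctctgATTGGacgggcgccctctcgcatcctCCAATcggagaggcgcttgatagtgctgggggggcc
Suz12: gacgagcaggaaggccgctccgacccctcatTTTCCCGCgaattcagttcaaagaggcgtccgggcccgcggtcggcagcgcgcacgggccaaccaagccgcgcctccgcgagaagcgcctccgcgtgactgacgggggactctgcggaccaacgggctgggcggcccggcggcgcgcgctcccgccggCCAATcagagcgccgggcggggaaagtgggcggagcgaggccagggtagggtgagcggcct
Setd7: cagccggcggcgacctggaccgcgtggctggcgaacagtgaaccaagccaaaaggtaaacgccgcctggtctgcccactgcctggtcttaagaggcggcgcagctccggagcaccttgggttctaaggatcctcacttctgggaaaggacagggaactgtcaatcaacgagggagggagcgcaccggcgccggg

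The motifs were searched on both strands in the whole 250 bases of 32851 RefSeq promoters, of which 35 belong to 27 of the 37 genes. The CCAAT box (CCAAT, or ATTGG on the other strand) was in 12 of the 35 member promoters and in 33.8% of all promoters. The Ezh2 window held it 3 times, a number reached by 2.79% of all promoters and by no other member with an entry. The third copy lies in the part not printed. The E2F sites TTTCCCGC and TTTGGCGC were in 1.30% of all promoters and in 1 member, Suz12. The hypoxia response core ACGTG, which overlaps the E-box CACGTG, was in 9 of the 35 and in 16.6% of all promoters, and the E-box in 4 and 6.02%. The amino acid response sites TGATGCAA and TGATGAAA were in 1 of the 35 (Kdm1a) and in 1.67% of all. CCGGAAG, an ETS site, was in 4 of the 35 and in 6.91% of all. A match is a string of letters and not a bound site.

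The H3K27 demethylases moved in opposite directions. Kdm6b, also known as JMJD3 and inducible in activated immune cells (ENSMUSG00000018476, chromosome 11, 69398508 to 69413675), was at 82.5, 89.6 and 91.1 CPM in the control and at 64.6, 65.7 and 71.9 CPM in the PM2.5 group. It was the only one of the 14 demethylases with a significant fall (-0.38, SE 0.05, adjusted p = 0.000107, 1.30-fold). Kdm6a, the X-linked UTX (ENSMUSG00000037369, 18162575 to 18279936), was at 117, 118 and 113 CPM and then at 139, 136 and 143 CPM (0.26, SE 0.04, adjusted p = 7.75e-05). In both genes the groups did not overlap. The summed FPKM of Kdm6a and Kdm6b were close, 25.1 ± 0.56 against 23.7 ± 0.89 (SD, n = 3), while those of Ezh1 and Ezh2 went from 26.0 ± 0.97 to 57.0 ± 1.35. The ratio of the H3K27 demethylase sum to the sum of the methyltransferases was therefore 0.930, 0.954 and 1.02 in the control libraries and 0.405, 0.399 and 0.446 in the PM2.5 libraries.

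**Figure D3:**
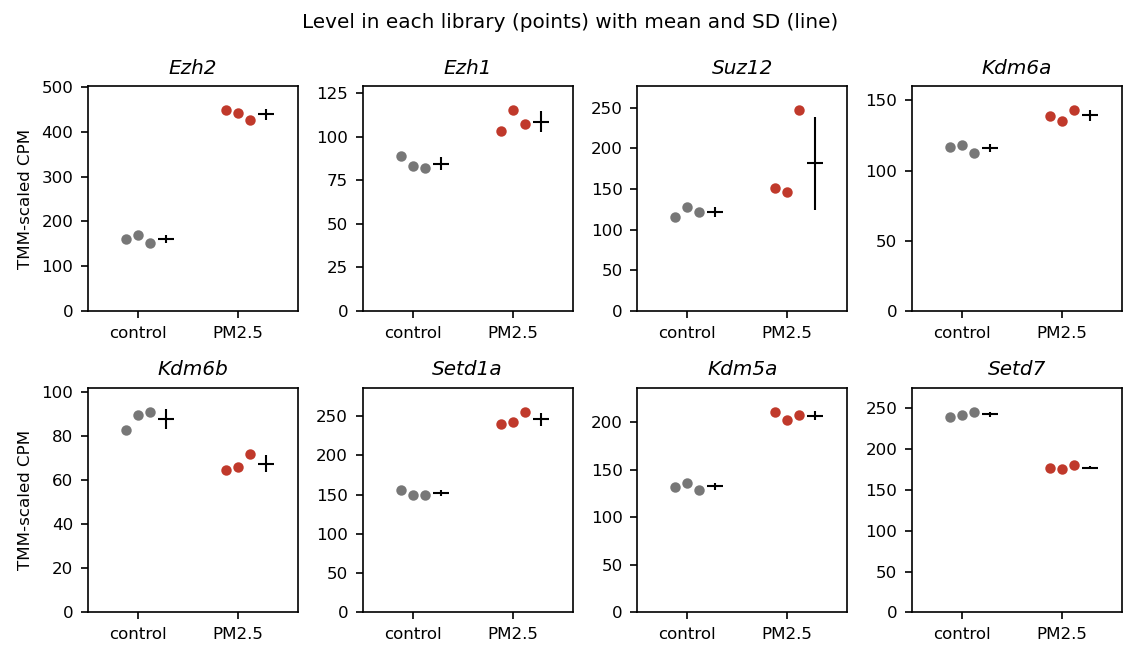
TMM-scaled CPM of 8 members in each library (points) with the mean and SD of the group (line, n = 3), on axes that start at 0. Ezh2 lies at 426 or more in every PM2.5 library, Kdm6b and Setd7 are lower in all 3, and PM2.5 replicate 3 stands apart for Suz12 at 247.

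All 3 H3K4 demethylases of the KDM5 family rose, where 35.2% of all genes tested were higher. Kdm5a, which was first described as a partner of the retinoblastoma protein (ENSMUSG00000030180, chromosome 6, 120364124 to 120444574), was at 132, 136 and 129 CPM in the control and at 211, 203 and 207 CPM in the PM2.5 group (0.64, SE 0.03, adjusted p = 5.22e-08). Kdm5b, a repressor at promoters, was at 96.0 ± 2.94 and 141 ± 3.92 CPM (0.55, SE 0.04). The X-linked Kdm5c, the most abundant of the family, was at 231 ± 7.67 and 332 ± 2.55 CPM (0.52, SE 0.03). Their folds lay between 1.44 and 1.56. Kdm5d and Uty, the Y-linked copies of Kdm5c and Kdm6a, had 0 counts in all 6 libraries, all labelled female.

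Of the 7 demethylases grouped under H3K9, 6 rose. That is 85.7% higher, where 35.2% of all genes tested were higher. Kdm4a, which acts on trimethylated H3K9 and H3K36 (ENSMUSG00000033326, chromosome 4, 118136957 to 118180043), was at 136, 135 and 138 CPM in the control and at 219, 209 and 209 CPM in the PM2.5 group (0.64, SE 0.03, adjusted p = 4.16e-08). Kdm3a, a demethylase of H3K9 known as a hypoxia-inducible gene (ENSMUSG00000053470, chromosome 6, 71588972 to 71632990), was at 138, 148 and 136 CPM and then at 222, 189 and 191 CPM (0.51, SE 0.07, adjusted p = 0.000279). Every PM2.5 library was above every control library in both genes, with PM2.5 replicate 1 the highest. Kdm4b, also induced by hypoxia in other cells, rose 1.27-fold (47.5 ± 4.35 to 60.5 ± 3.60 CPM). Kdm4c rose 1.17-fold (0.22, adjusted p = 0.00377; 0.0568 with offsets for gene GC content and length), Phf8, which also acts on H4K20, 1.15-fold (0.20), and Kdm3b less (0.16). In GENCODE M21 a model on the opposite strand, Gm26538, covers 24.6% of the exon bases of Kdm3b. Kdm4d was the lowest member, with 37 to 59 counts a library and 2.35 ± 0.42 and 2.09 ± 0.19 CPM, and did not pass (-0.17, SE 0.18, adjusted p = 0.409). GENCODE M21 annotates a pseudogene named Kdm4dl, and counts of Kdm4d are uncertain where reads could be shared with it.

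Kdm2b had the largest rise among the demethylases. It removes methyl groups from H3K36 and brings a variant of Polycomb complex 1 to CpG islands (ENSMUSG00000029475, chromosome 5, 122870665 to 122989823). It was at 113, 106 and 115 CPM in the control and at 180, 181 and 184 CPM in the PM2.5 group (0.70, SE 0.04, adjusted p = 4.66e-08, 1.63-fold). Its relative Kdm2a was at 200 ± 4.70 and 220 ± 2.02 CPM (0.14, SE 0.03, adjusted p = 0.00199), 1.10-fold, and did not pass with limma on log2(FPKM + 1) (0.07, adjusted p = 0.0993). Kdm2b shares 5.77% of its exon bases with Rnf34 on the opposite strand in GENCODE M21, and the strand setting of the counting is not given in the sources used here.

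The flavin-dependent demethylases moved by at most 0.14 on the log2 scale. Kdm1a, or LSD1, an H3K4 demethylase of the CoREST complex, was at 106 ± 3.33 and 105 ± 3.32 CPM (-0.02, SE 0.04, adjusted p = 0.725). Kdm1b, its relative that acts in gene bodies, was at 35.3, 39.4 and 35.6 CPM and at 40.7, 39.9 and 40.8 CPM, groups that barely separate (0.14, SE 0.06, adjusted p = 0.0440). Its call held in 3 of 15 alternatives and was lost, for example, with library totals (adjusted p = 0.235), DESeq2 (0.120) and without any library other than control replicate 2 (0.0614 to 0.151). Dek shares 9.19% of the exon bases of Kdm1b on the opposite strand.

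Among the 8 genes grouped as H3K4 methyltransferases, 4 rose, 3 fell and Kmt2b did not pass. That is 87.5% passed, 50% higher and 37.5% lower. Over all genes tested the shares were 70.6%, 35.2% and 35.3%. Setd1a, the catalytic subunit of the complex that places trimethylated H3K4 at promoters (ENSMUSG00000042308, chromosome 7, 127776670 to 127800122), was at 156, 150 and 150 CPM in the control and at 240, 243 and 255 CPM in the PM2.5 group (0.70, SE 0.04, adjusted p = 3.69e-08, 1.62-fold). Its paralog Setd1b was at 91.3 ± 1.38 CPM and rose to 114 ± 5.11 CPM (0.32, SE 0.04). A same-strand gene model, Gm49388, covers 51.8% of the exon bases of Setd1a in GENCODE M21, so reads of the pair could not be told apart.

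Kmt2a, the MLL1 enzyme that maintains the activity of developmental genes (ENSMUSG00000002028, chromosome 9, 44803355 to 44881296), was at 280, 289 and 293 CPM and then at 439, 398 and 436 CPM (0.56, SE 0.04, adjusted p = 5.84e-07). Kmt2b, its closest relative, was at 233 ± 4.69 and 243 ± 6.72 CPM with overlapping groups (0.06, SE 0.03, adjusted p = 0.114). The paralogs Kmt2c and Kmt2d, which place monomethylated H3K4 at enhancers, moved apart. Kmt2d was at 327, 322 and 373 CPM and at 414, 411 and 477 CPM (0.35, SE 0.09, adjusted p = 0.0122; 0.0571 without control replicate 2), and Kmt2c at 177, 178 and 184 CPM and at 158, 149 and 165 CPM (-0.19, SE 0.04, adjusted p = 0.00175). In both the groups did not overlap.

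Of the methyltransferase genes Setd7 and Kmt2e fell most. Setd7, which monomethylates H3K4 and many non-histone proteins (ENSMUSG00000037111, chromosome 3, 51515319 to 51560879), was at 240, 242 and 246 CPM in the control and at 177, 176 and 180 CPM in the PM2.5 group. The spread within each group was a few CPM, much less than the gap between them (-0.45, SE 0.03, adjusted p = 2.48e-07, 1.37-fold). Kmt2e, a family member thought to lack methyltransferase activity (ENSMUSG00000029004, chromosome 5, 23434441 to 23504235), was at 246, 249 and 257 CPM and at 195, 193 and 197 CPM (-0.36, SE 0.03, adjusted p = 1.89e-06). It shares 9.31% of its exon bases with Srpk2 on the opposite strand.

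Of the 5 H3K9 methyltransferases 2 rose and 1 fell, all by less than 0.30 on the log2 scale. That is 60% passed, against 70.6% of all genes tested. Setdb1, which silences endogenous retroviruses, rose 1.23-fold, from 107 ± 2.16 to 132 ± 1.80 CPM (0.30, SE 0.03, adjusted p = 1.64e-05). Ehmt2 (G9a) was at 182, 178 and 206 CPM and at 168, 158 and 158 CPM (-0.23, SE 0.06, adjusted p = 0.00675). Its partner Ehmt1 (GLP) was at 80.6 ± 3.63 and 74.0 ± 4.95 CPM (-0.12, SE 0.05, adjusted p = 0.0684), and passed as lower in 8 of 15 alternatives. Suv39h1, which builds pericentric heterochromatin, was at 118 ± 0.28 and 124 ± 2.23 CPM (0.08, SE 0.03, adjusted p = 0.0475). That call was lost in 13 of 15 alternatives, for example under DESeq2 (0.161) or when control replicate 1 was left out (0.110). With library totals the change was 0.014. Suv39h1 shares 14.6% of its exon bases with the antisense model Gm14820. Suv39h2 was low, at 14.8 ± 2.63 and 14.8 ± 1.26 CPM (-0.003, SE 0.13, adjusted p = 0.985).

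Methyltransferases of the remaining lysines were split between clear rises and no call. Setd8, the H4K20 monomethyltransferase that acts in mitosis and DNA replication (ENSMUSG00000049327, chromosome 5, 124439930 to 124462308), was at 121, 130 and 125 CPM and at 172, 189 and 190 CPM (0.55, SE 0.05, adjusted p = 1.49e-06). Setd2, which places trimethylated H3K36 during elongation, rose from 190 ± 7.89 to 238 ± 9.44 CPM (0.33, SE 0.04). Nsd1, which dimethylates H3K36, was at 286 ± 7.69 and 287 ± 5.42 CPM (0.004, SE 0.03, adjusted p = 0.919), and when gene GC content and length were offset it passed as lower (-0.08, adjusted p = 0.0240). Dot1l, the H3K79 methyltransferase, was at 215 ± 9.04 and 207 ± 11.4 CPM (-0.05, SE 0.05, adjusted p = 0.323).

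Because related enzymes often moved unequally, the ratio of their FPKM was taken in each library for 11 pairs of paralogs. For 9 pairs the ratios of the 2 groups did not overlap, 6 higher and 3 lower after PM2.5, and 2 pairs overlapped. Single genes did not overlap in 74.9% of all genes tested, and the same share over ratios of other gene pairs was not computed, so nothing is read from this count. With 3 libraries a group the exact two-sided permutation test cannot give a p below 0.1, and those 9 pairs were at that limit (0.122 after Benjamini-Hochberg adjustment over the 11 pairs). The ratio of Ezh2 to Ezh1 was 2.23, 2.52 and 2.29 in the control and 5.34, 4.72 and 4.90 in the PM2.5 group. That of Kdm6b to Kdm6a was 0.901, 0.968 and 1.03 and then 0.594, 0.620 and 0.643. The Kdm2b to Kdm2a ratio went from 0.651 ± 0.028 to 0.960 ± 0.013, that of Kmt2a to Kmt2b from 0.763 ± 0.018 to 1.08 ± 0.030 and that of Kmt2c to Kmt2d from 0.488 ± 0.028 to 0.335 ± 0.017 (SD, n = 3). Ehmt2 to Ehmt1 (exact permutation p = 0.5, adjusted 0.55) and Suv39h1 to Suv39h2 (exact permutation p = 0.7) overlapped, so the members of those pairs could not be separated by their change.

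**Figure D4:**
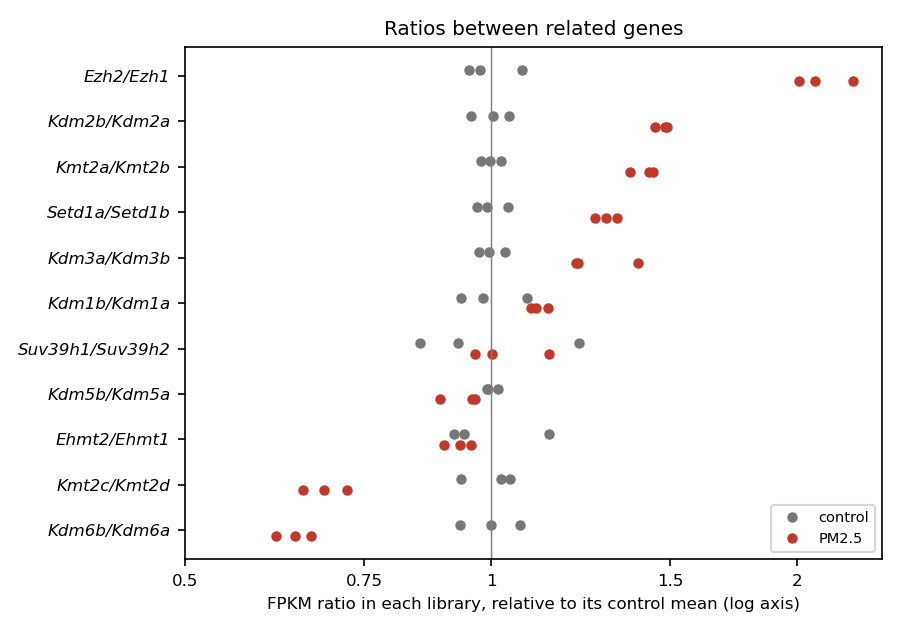
FPKM ratio of each of 11 paralog pairs in each library, divided by the control mean of the pair, on a log axis. The PM2.5 points of Ezh2/Ezh1 lie near 2, those of Kdm6b/Kdm6a and Kmt2c/Kmt2d are the lowest, and Ehmt2/Ehmt1 and Suv39h1/Suv39h2 overlap with their controls.

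Levels per length placed most members in the upper part of the expressed genes. In the control, Eed (31.8 FPKM), Kdm3b (26.7 FPKM) and Nsd1 (22.9 FPKM) were the highest, and Kdm4d (0.499 FPKM), Suv39h2 (1.81 FPKM) and Kdm1b (4.24 FPKM) the lowest. Neighbours in this order often differed by less than their spread: Setd1a, Kdm5c, Kmt2b, Ehmt2 and Ezh2 lay between 19.3 and 18.2 FPKM with SDs of 0.44 to 1.59. After PM2.5 the order at the top was Ezh2 (47.4 FPKM), Eed (31.8 FPKM) and Setd1a (30.0 FPKM), and Setd7 went from the fourth place to the 13th. These ranks depend on the gene length the authors used, which was 2519 bases for Eed, 7112 for Kdm3b and 12784 for Nsd1. The exons of these genes cover more in GENCODE M21, 3828, 14095 and 17483 bases. For Ezh2 (9056 bases used, 6678 in exons) and Ehmt2 (10454 and 5489) the length used was the larger. The order, with Eed, Kdm3b and Nsd1 at the top of the control, could therefore differ with other lengths.

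Partners and further enzymes of histone lysine methylation gave a balanced picture. Of 65 symbols listed, which include older and newer names of the same genes, 56 were found and 54 were tested, of which 20 rose, 17 fell and 17 did not pass (68.5% passed, median 0.07), a share near that of all genes. Among 11 subunits of the complexes that carry the H3K4 methyltransferases, 7 rose and 4 did not pass. That is 63.6% passed, all higher, where 70.6% of all genes tested passed and 35.2% were higher. Rbbp5, a core subunit, was at 0.53 (83.8 ± 2.05 to 121 ± 3.56 CPM). Of 7 accessory PRC2 subunits, 2 rose and 3 fell, and of 7 further demethylase genes tested 2 rose and 4 fell. The LSD1 partner list held 3 falls and 1 rise of 7 (57.1% passed). Hdac1, a histone deacetylase of the complex (-0.55), Phf21a, a reader of unmethylated H3K4 (-0.54), and Zmynd8, a reader of chromatin marks (-0.60), fell. Rcor1 rose from 114 ± 4.21 to 154 ± 3.04 CPM (0.44, adjusted p = 1.75e-06). Hdac2, another histone deacetylase, did not pass (0.06, adjusted p = 0.283).

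Among these further genes 4 passed with at least a 2-fold change, Smyd5, Cbx3, Jmjd1c and Smyd1. Smyd1, a muscle methyltransferase gene, is below the 5 CPM limit for naming and was added after its values were seen. It was at 2.17, 2.27 and 2.18 CPM in the control and at 0.0752, 0.509 and 0.242 CPM in the PM2.5 group, there from 2, 13 and 6 counts (-2.99, SE 0.38, adjusted p = 4.43e-05). Smyd5, a SET and MYND domain gene, was at 44.4, 26.6 and 42.7 CPM in the control and at 132, 127 and 130 CPM in the PM2.5 group (1.77, SE 0.21, adjusted p = 0.00152), with control replicate 2 the lowest. Jmjd1c, a relative of Kdm3a, was at 292, 309 and 297 CPM and at 149, 144 and 144 CPM (-1.04, SE 0.03, adjusted p = 1.11e-09), 2.05-fold lower, so the KDM3 family did not move as one. Jmjd6, a JmjC hydroxylase, rose 1.56-fold (0.64). Cbx3, the heterochromatin protein HP1 gamma, was at 68.3, 75.4 and 32.3 CPM and at 26.9, 25.5 and 24.6 CPM (-1.19, SE 0.37, adjusted p = 0.0415), and its call was lost in 7 of 15 alternatives, without control replicate 1 (0.114), control replicate 2 (0.104) or any PM2.5 library (0.107 to 0.118) among them.

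Genes that supply or consume the cofactors changed in both directions. Of 15 genes around 2-oxoglutarate and its inhibitors, 6 rose and 7 fell (86.7% passed). Of 7 genes of S-adenosylmethionine turnover 3 rose and 2 fell (71.4% passed). The share over all genes tested was 70.6%. The isocitrate dehydrogenases that form 2-oxoglutarate with NADP, Idh1 (20.02, 20.7 and 22.3 CPM to 9.10, 8.15 and 7.13 CPM, -1.37) and Idh2 (19.6 ± 0.73 to 12.4 ± 0.60 CPM, -0.66), fell. Other genes around 2-oxoglutarate moved both ways. Got2, named after its values were seen, fell from 237 ± 1.06 to 198 ± 6.65 CPM (-0.26, SE 0.03, adjusted p = 4.36e-05). Glud1, which makes 2-oxoglutarate from glutamate and was named after its values were seen, was at 261, 260.04 and 246 CPM in the control and rose to 709, 698 and 679 CPM (1.44, SE 0.03, adjusted p = 1.03e-10), 2.72-fold. Of the subunits of the NAD-dependent enzyme, likewise named afterwards, Idh3b (0.12) and Idh3g (0.17) rose and Idh3a did not pass (0.07, adjusted p = 0.145). Ogdh, which consumes 2-oxoglutarate, was at -0.11 (adjusted p = 0.0194), a call lost without control replicate 1 (0.0747), PM2.5 replicate 2 (0.0745) or PM2.5 replicate 3 (0.0661). Got1, a transaminase that can form or use 2-oxoglutarate, rose (1.59), and the direction of its reaction was not measured. Ahcy, which clears the product of methyl transfer, fell (-0.41), and Mat2a, which makes S-adenosylmethionine, was at 168 ± 28.2 and 214 ± 14.1 CPM and did not pass (0.35, SE 0.14, adjusted p = 0.0783). It passed with DESeq2 (0.000597) and without control replicate 2 (0.00944). Hif1a, the oxygen-regulated factor known to induce Kdm3a, rose (0.45), and a link between the 2 rises was not tested. Levels of these metabolites were not measured.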

How the data were processed

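The authors deposited raw counts per Ensembl gene for 6 libraries, per the file headers. They also deposited FPKM, per the file headers, which for 9540 genes with over 100 counts in each library equal the count over the library total and a gene length to within 0.000541%. The submitters' processing notes name TopHat2 2.0.6 and mm10. The sources used here do not give the counting program, annotation or strand, so values of overlapping and near-identical genes are uncertain. Genes passing filterByExpr (minimum count 10, total 15) were tested with edgeR 4.0.16 (R 4.3.3; TMM, robust quasi-likelihood fit over all 6 libraries, two-sided, Benjamini-Hochberg adjustment, threshold 0.05). The common biological coefficient of variation came to 8.17%. SEs were taken as the size of the log2 fold change divided by the root of the F statistic. Values after ± are SDs, n = 3. The fit was tested on simulated data with a far smaller share of changed genes than passed here. That test therefore does not cover scaling under such wide change. Alternatives used limma 3.58.1 on log2(FPKM + 1), DESeq2 1.42.0, other scalings, filters and offsets, and left-out libraries. A count of 0 allows 0.110 to 0.154 CPM (3 counts), for counting error only.

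The members and gene lists were chosen with earlier results of these data known. Named are all 37 members, the 8 further genes with the largest significant change and at least 5 CPM in a group, and cofactor genes listed by name, of which 1 is not reported here. Gene coordinates come from the deposited table (mm10), promoter sequences from RefSeq and exon overlaps from GENCODE M21.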

Additional observations from a re-analysis of the deposited data

How the results depend on the processing

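Over 15 alternatives, 23 of the 28 members that passed kept their call and direction wherever they were tested, 18 higher and 5 lower. The calls of Kdm1b, Suv39h1, Kdm2a, Kdm4c and Kmt2d were lost in at least 1 (Kdm4c only with the GC and length offsets, adjusted p = 0.0568), and Ehmt1, Dot1l, Eed, Kmt2b and Suz12, without a call, gained one in at least 1, as did Nsd1 as lower with the GC and length offsets (adjusted p = 0.0240); the causes were not tested. The number of members that passed was 26 to 28. Those higher numbered 20 to 23 and those lower 5 to 7. The median log2 fold change of the members, 0.22 in the main fit, was 0.14 with the GC and length offsets and with limma. It was 0.16 with library totals and 0.26 without PM2.5 replicate 2, the highest. Library totals moved the median of all genes from -0.01 to -0.07, so calls near 0 depend on the scaling. The flavin demethylases that rose numbered 0 instead of 1 with library totals, DESeq2, a 5 CPM filter, limma, gene length offsets, the replicate block and the GC and length offsets, and 0 to 1 when a library was left out. The PRC2 core subunits that rose numbered 1 instead of 0 with DESeq2 and gene length offsets, and 0 to 1 when a library was left out. The H3K9 genes that fell numbered 2 instead of 1 with library totals, a 5 CPM filter, limma, gene length offsets, the replicate block and the GC and length offsets, and 1 to 2 when a library was left out. Of Setd8 and Dot1l, 1 instead of 0 fell with library totals and with the 5 CPM filter. Of the H3K36 genes, 1 instead of 0 fell with the GC and length offsets, an alternative chosen after seeing the data.

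Among the members, signs turned for 5 that had no call with all libraries and TMM. Kmt2b was at -0.00255 with library totals, -0.00374 with the 5 CPM filter and -0.00222 with limma. Nsd1 was at -0.0604, -0.0617 and -0.0576 with those 3, -0.0255 with gene length offsets, -0.0757 with the GC and length offsets, and between -0.0144 and 0.0240 when a library was left out. Suv39h2 was at 0.00323 with no filter, 0.00841 with the replicate block, and between -0.137 and 0.103 when a library was left out. Kdm1a was between -0.0355 and 0.0137 when a library was left out, and Dot1l at 0.00324 with the GC and length offsets. Whether the replicate numbers pair the libraries cannot be settled with 3 libraries a group. Same-numbered libraries correlated weakly in their deviations, at 0.0134, 0.00720 and 0.0450, and 4 of 6 correlated best with their own number. With the replicate block 27 members passed, 21 higher and 6 lower. Kdm4d, at 37 to 59 counts, is the member whose depth limits the test most.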
